A study of Mus musculus with 3 samples.

Results

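The endothelin, adrenomedullin and angiotensin-converting genes of lung endothelium were followed in 3 single-cell RNA libraries of endothelial cells (ECs). The set held 9 of the 32285 genes counted, taken by symbol: the ligand Edn1, its receptors Ednra and Ednrb and its processing enzyme Ece1; the ligand Adm, its receptor Calcrl and the accessory proteins Ramp2 and Ramp3; and Ace. All 9 were detected. C57BL/6 wild-type mice, male young adults by the study's methods, received by tail vein either 100 µl PBS (control library, lungs taken at 6 h) or 200000 B16-F10 cells, a mouse melanoma line, in 100 µl PBS, with lungs taken at 6 h or at 30 h. ECs were sorted as Pecam1+ Ptprc- cells, with dye-labelled melanoma cells also collected from the metastatic lungs, and each library pooled mice (2 per treatment by the labels, 3 by the methods text, which was not settled), so there was 1 library per group and no replicate error. There was no PBS library at 30 h, so time after injection and the presence of tumour cells cannot be told apart at 30 h.

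Endothelin-1 is a peptide made mainly by ECs that constricts vessels. It is released from a precursor by endothelin-converting enzyme, encoded by Ece1, and acts on the receptor of Ednra, which is best known from smooth muscle, and on that of Ednrb, which in ECs is linked to nitric oxide release and to clearance of the peptide. Adrenomedullin is a vasodilator that acts on ECs through the receptor of Calcrl, which must pair with Ramp2 or Ramp3 to bind it, and angiotensin-converting enzyme, encoded by Ace, sits on the lumenal face of lung capillaries, where it makes angiotensin II and degrades bradykinin. Lung capillaries hold general capillary ECs (gCap) and aerocytes (aCap), the latter lying on the gas exchange surface.

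The libraries gave 11231 ECs in the control, 10583 at 6 h and 9278 at 30 h, between 96.8% and 97.6% of the cells with 1000 to 5000 detected genes and under 20% mitochondrial UMIs (unique molecular identifiers, each counting 1 captured mRNA). Their median depth was 7782, 8033 and 8675.5 UMIs. Counts were summed over cells and given as CPM, the UMIs of a gene per 1000000 UMIs of the sum, with a 95% interval that covers counting error only. ECs were placed in classes by gates that hold none of the 9 genes: gCap-like (7832, 7793 and 6147 cells), aCap-like (1672, 1424 and 1618; Fibin, Tbx2 and Chst1), vein-like (1088, 686 and 750) and artery-like (158, 147 and 270). In Leiden clusters of all ECs, most capillary cells at 30 h fell into other clusters than those of the control: the largest gCap cluster held 2, 9 and 5202 cells of the 3 libraries, a second one 140, 2566 and 8, and the main aCap clusters 1492, 1249 and 65, and 6, 3 and 1213. Within the capillary classes, the cells compared at 30 h therefore came mostly from different clusters. RNA of other cells was present in the ECs and differed between the libraries. The summed level was 3249, 2119 and 829 CPM for 5 red cell genes, 835, 608 and 380 CPM for 7 epithelial genes and 175, 211 and 172 CPM for 7 platelet genes. It was 102, 94.0 and 105 CPM for the pericyte and smooth muscle list and 1.67, 14.7 and 1.34 CPM for 8 melanoma genes. The part of this RNA in the results below was not tested, except where a value without such cells is given. The summed level of 7 rRNA-like gene models over all ECs was 5056, 6309 and 21326 CPM in control, 6 h and 30 h. Leaving them out of the total is an alternative given below, and their further part in the 30 h values was not tested. Between 22 and 38 cell barcodes were shared by each pair of libraries, and none by all 3.

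The genes lie on mm10 (GRCm38) at chr13:42301476-42307990 (Edn1, plus strand), chr8:77663031-77724464 (Ednra, minus), chr14:103814625-103844402 (Ednrb, minus), chr4:137862237-137965229 (Ece1, plus), chr7:110627661-110629820 (Adm, plus), chr2:84330626-84425411 (Calcrl, minus), chr11:101246028-101259546 (Ramp2, plus), chr11:6658521-6677475 (Ramp3, plus) and chr11:105967945-105989964 (Ace, plus), and all are protein coding. RefSeq promoter windows (GRCm38.p6) were matched for 8 of the 9 genes, all but Ramp2. The 250 bases before the RefSeq start, 5′ to 3′ on the gene's own strand, are shown for Edn1 and Ednrb, which had opposite patterns over gCap-like and aCap-like cells, and for Adm, whose level differed most between the times. They are chr13:42301226-42301475 (plus strand) for Edn1, chr14:103843702-103843951 (minus) for Ednrb and chr7:110627407-110627656 (plus) for Adm. The Ednrb window lies within the longer GENCODE gene, and capitals mark the single motif match.
Edn1: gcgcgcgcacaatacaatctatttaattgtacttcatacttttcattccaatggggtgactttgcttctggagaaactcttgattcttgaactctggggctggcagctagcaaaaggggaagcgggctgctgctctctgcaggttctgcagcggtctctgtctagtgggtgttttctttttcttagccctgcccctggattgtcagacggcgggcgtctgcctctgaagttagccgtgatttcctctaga
Ednrb: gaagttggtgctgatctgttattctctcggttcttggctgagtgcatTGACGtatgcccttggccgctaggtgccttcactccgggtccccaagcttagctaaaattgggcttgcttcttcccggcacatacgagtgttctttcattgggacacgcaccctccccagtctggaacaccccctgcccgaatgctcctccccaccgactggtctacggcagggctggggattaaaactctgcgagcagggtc
Adm: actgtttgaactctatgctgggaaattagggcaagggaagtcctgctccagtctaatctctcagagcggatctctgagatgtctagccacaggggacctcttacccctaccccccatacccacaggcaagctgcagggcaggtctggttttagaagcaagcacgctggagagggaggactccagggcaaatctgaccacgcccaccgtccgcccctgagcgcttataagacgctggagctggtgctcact
Searched on both strands were the AP-1 site TGANTCA, the cAMP-response letters TGACG, the hypoxia core ACGTG, the GATA letters AGATAA and the TATA box TATAAA. The only match in these 3 windows was TGACG in Ednrb, on the same strand from 203 to 199 bases before the start, and 17.8% of all 32851 windows of this length hold it. The other motifs are in 6.75% (AP-1), 16.6% (hypoxia core), 9.99% (GATA) and 12.4% (TATA box) of all windows.

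Edn1, the endothelin ligand, was lower in both libraries of melanoma-injected mice. Over all ECs it stood at 316 CPM in the control (28676 UMIs), 258 CPM at 6 h (22564 UMIs) and 203 CPM at 30 h (16553 UMIs). The order was the same in cells with at least 1 Edn1 UMI after each cell was thinned to 2000 UMIs, with 31.6% (95% exact interval 30.7 to 32.4), 27.3% (26.4 to 28.1) and 20.9% (20.1 to 21.7) of cells. These intervals count cells of 1 library each and hold no spread between libraries. Without thinning these shares were 52.9%, 49.0% and 39.1%. In immune cells of the same libraries, 0 of 14, 0 of 40 and 0 of 34 thinned cells had an Edn1 UMI. At 3 counts of the total this allows shares of up to 21.4%, 7.5% and 8.82%, at median depths of 5876.5, 8194 and 7506.5 UMIs. The log2 ratio against control was -0.29 (95% counting interval -0.31 to -0.26) at 6 h and -0.64 (-0.66 to -0.61) at 30 h, while over the 10175 genes whose mean reached 5 CPM the median was -0.01 and -0.07. With median-of-ratios scaling in place of total UMIs the 30 h value was -0.56, which is no longer past 1.5-fold.

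The Edn1 difference was not the same size in every class. Artery-like ECs held the highest level, at 731, 528 and 581 CPM in control, 6 h and 30 h, and aCap-like ECs a low one, at 85.3, 69.5 and 46.5 CPM. Levels in gCap-like ECs were 372, 291 and 246 CPM. Vein-like ECs stood at 359 and 362 CPM in the control and at 6 h and at 197 CPM at 30 h. The lymphatic (LEC) class held only 29, 32 and 25 cells, with Edn1 at 5.06, 93.7 (60.0 to 139) and 15.97 CPM from 1, 24 and 3 UMIs. In 71, 51 and 55 cells with at least 10 UMIs of the LEC gate, a limit chosen after values were seen that also takes cells passing another gate, it was 18.1, 21.2 and 3.68 CPM, from 11, 9 and 2 UMIs. Ranked by level, gCap-like and vein-like overlapped over the 3 libraries, and artery-like lay above both in each. The log2 ratio at 30 h was -0.60 (-0.63 to -0.56) in gCap-like, -0.87 (-0.998 to -0.751) in aCap-like, -0.87 (-0.95 to -0.78) in vein-like and -0.33 (-0.44 to -0.22) in artery-like ECs. At 6 h it was -0.35 in gCap-like, -0.30 in aCap-like, 0.01 in vein-like and -0.47 in artery-like ECs, so vein-like ECs alone of the 4 classes had an interval (-0.06 to 0.08) that held 0. With classes from Leiden clusters the 30 h values were -0.57 in gCap-like and -0.45 in aCap-like ECs, which ended both as calls past 1.5-fold, and with stricter cluster names -0.57 and -1.24. Edn1 also moved in empty droplets, at 187, 143 and 138 CPM, with log2 ratios of -0.39 (-0.77 to -0.02) and -0.43 (-0.70 to -0.16). Its aCap-like level lay below the empty-droplet level in each library. With 10% of each sum taken as free RNA and subtracted, the all-EC log2 ratios were -0.28 at 6 h and -0.65 at 30 h. The same 10% was taken in every library, so a difference in the amount of free RNA between libraries was not tested. The part of free RNA within classes was not tested.

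**Figure D1:**
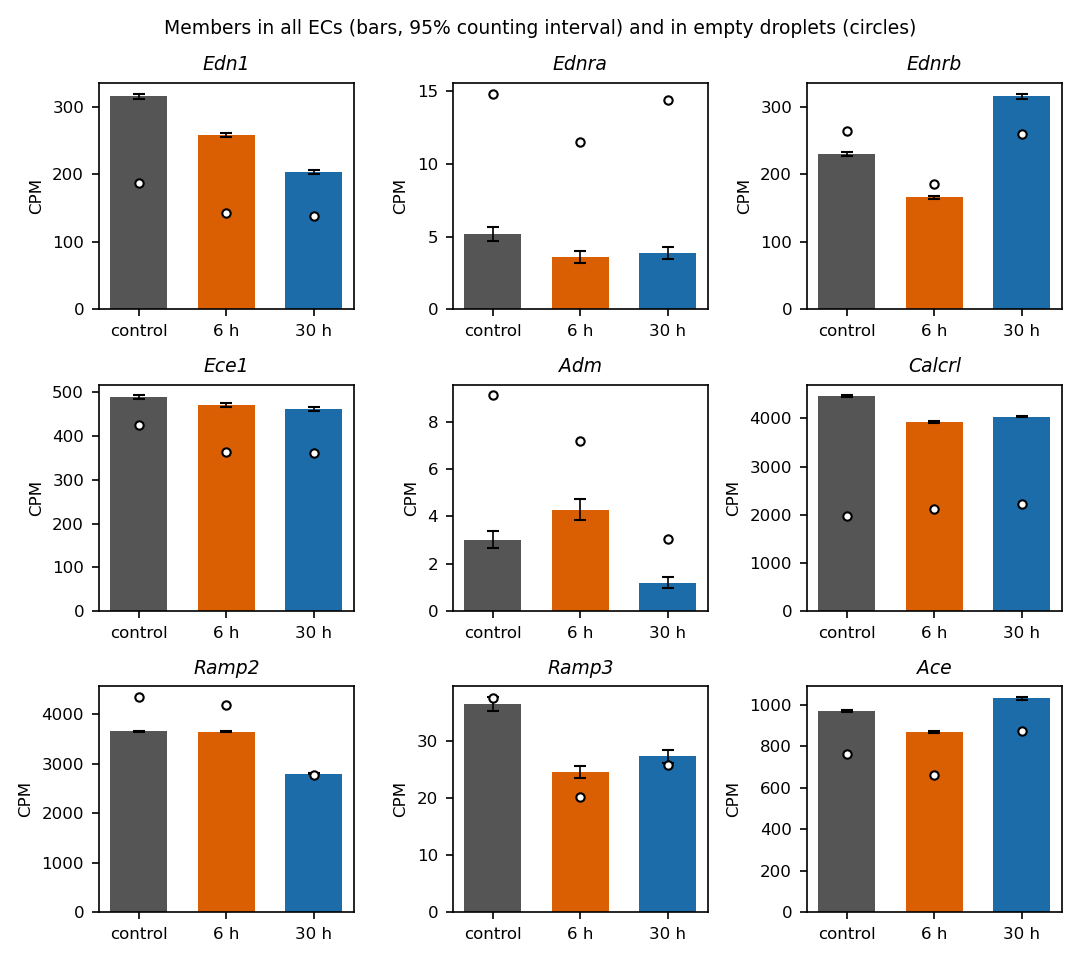
CPM of each of the 9 genes over all ECs of the control, 6 h and 30 h libraries, with bars for the level, error lines for the 95% counting interval and open circles for the level in empty droplets of the same library. Edn1 stood at 316, 258 and 203 CPM and Ednrb at 230, 166 and 315 CPM, and in empty droplets Ramp2, Edn1 and Ece1 were lower at 30 h than in the control with counting intervals of the ratio that left out 0.

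Edn1 was spread unevenly among cells. In thinned control gCap-like ECs the mean was 0.732 UMIs per cell, the maximum 17 and the variance 2.58 times the mean, and the top 10% of cells held 54.9% of the Edn1 UMIs. At 30 h the mean was 0.467, the maximum 16 and the variance 2.61 times the mean. The libraries of melanoma-injected mice also differed from the control in early response genes. The summed level of 16 immediate early genes in gCap-like ECs was 10251, 14805 and 7713 CPM (Fos 1472, 2443 and 874 CPM). That of 12 glucocorticoid-responsive genes was 2029, 1594 and 1751 CPM. gCap-like ECs were grouped at 3 levels of each list, with limits taken from the control. Edn1 increased with the immediate early level within each library, from 324 to 403 CPM in the control, from 258 to 311 CPM at 6 h and from 226 to 259 CPM at 30 h. Within the immediate early levels the Edn1 log2 ratios against control ran from -0.43 to -0.33 at 6 h and from -0.64 to -0.52 at 30 h. Within the glucocorticoid levels they were -0.44 to -0.13 and -0.68 to -0.40. The part of either list in the Edn1 difference was not tested. The summed level of 10 heat shock genes in gCap-like ECs was 1672.5, 3651 and 2132 CPM in control, 6 h and 30 h, and its part was not tested.

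**Figure D2:**
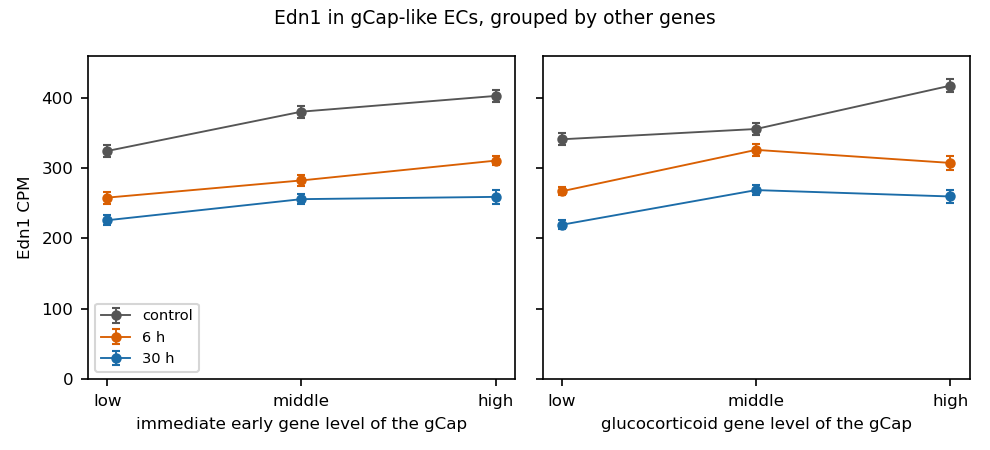
Edn1 CPM in gCap-like ECs of the 3 libraries, grouped by each cell's level of 16 immediate early genes (left) and 12 glucocorticoid-responsive genes (right), with limits that split the control cells into 3 equal groups and 95% counting intervals. The control line lies above the 6 h line and the 6 h line above the 30 h line in every group of both panels.

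Ednrb, the endothelin B receptor, was almost restricted to aerocytes among the capillary classes, and its level was lowest at 6 h and highest at 30 h. In aCap-like ECs it stood at 1047 CPM in the control (18203 UMIs), 844 CPM at 6 h (12656 UMIs) and 1282 CPM at 30 h (23144 UMIs). In gCap-like ECs it stood at 24.8, 20.7 and 27.5 CPM, so the aCap-like level was 42.2, 40.9 and 46.6 times higher within the 3 libraries. Over the 3 libraries the gCap-like range overlapped those of artery-like (39.1, 20.2 and 38.0 CPM) and vein-like ECs (22.9, 16.4 and 25.0 CPM), and the LEC class lay between, at 162, 97.6 and 101 CPM from 32, 25 and 19 UMIs. A UMI of Ednrb was found in 74.0% (71.8 to 76.1), 69.4% (66.9 to 71.8) and 77.7% (75.5 to 79.7) of thinned aCap-like cells against 4.72%, 3.74% and 5.16% of gCap-like ones, at median depths of 10505 to 11407.5 and 7172 to 8074 UMIs. Unthinned shares in aCap-like cells were 89.4%, 87.9% and 89.5%. In empty droplets Ednrb stood at 263, 186 and 259 CPM, above its gCap-like level, and the part of free RNA in the gCap-like level was not tested.

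The Ednrb level followed the aCap gate count of a cell. In the control it was 21.9 CPM in ECs with no gate UMI, 44.0 CPM with 1 to 2, 187 CPM with 3 to 4, 707 CPM with 5 to 9, 1093 CPM with 10 to 19 and 1319 CPM with 20 or more. At 30 h the last group reached 1681 CPM and at 6 h 1112 CPM. Cells with at least 10 gate UMIs therefore carried most of the transcript in each library. Within aCap-like ECs the log2 ratio against control was -0.31 (-0.34 to -0.28) at 6 h and 0.29 (0.26 to 0.32) at 30 h. Between the 2 melanoma libraries, 30 h against 6 h, it was 0.60 (0.57 to 0.63). With classes from Leiden clusters the 30 h value was 0.07, and with stricter cluster names 0.34. Over all ECs Ednrb was 230, 166 and 315 CPM with log2 ratios of -0.48 (-0.51 to -0.45) and 0.45 (0.42 to 0.48), and the aCap-like share of ECs moved in the same order, at 14.9%, 13.5% and 17.4%. As in any pool of cells, more cells of a class and more RNA per cell enter the all-EC value together. Edn1 and Ednrb UMIs were rarely found in 1 cell: 2.01% of thinned control ECs held both, against 5.06% from the product of their separate shares. Within classes the values lay closer, at 1.43% against 1.71% in gCap-like, 4.98% against 7.82% in aCap-like and 3.21% against 2.33% in artery-like control ECs.

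**Figure D3:**
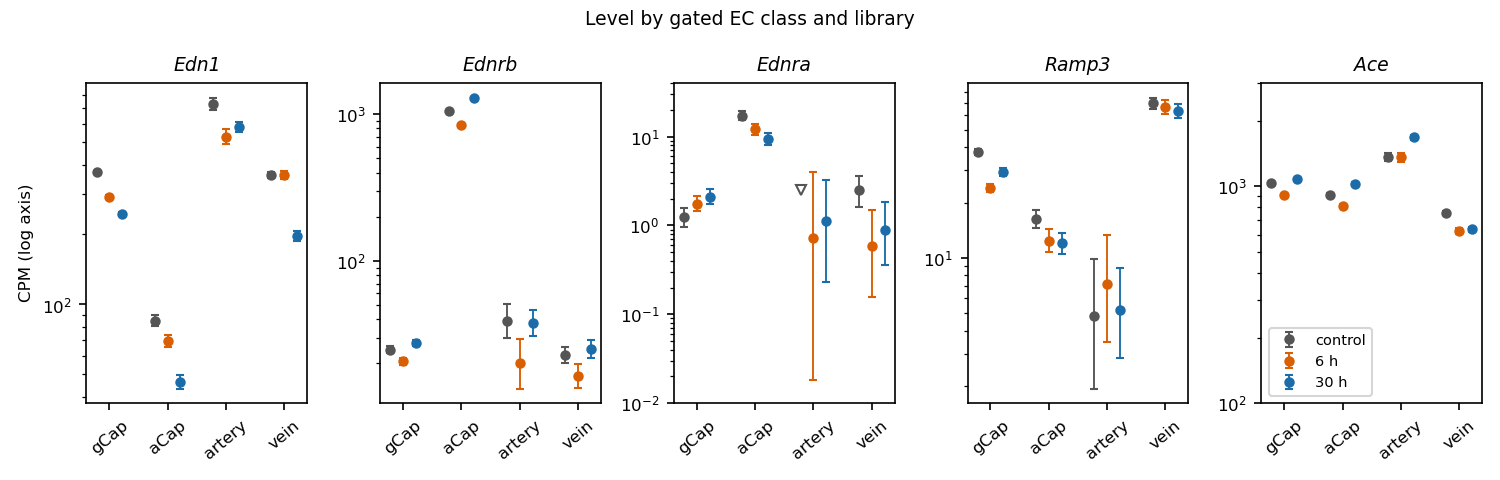
CPM (log axis) of Edn1, Ednrb, Ednra, Ramp3 and Ace in the 4 gated EC classes, with points for the 3 libraries and 95% counting intervals; the open triangle is the exact upper interval bound, 2.53 CPM, of a count of 0. Edn1 and Ace were highest in artery-like, Ednrb and Ednra in aCap-like and Ramp3 in vein-like ECs of each library.

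Ednra, the endothelin A receptor, was scarce in ECs and rested on few cells. Over all ECs it stood at 5.20 CPM in the control (472 UMIs), 3.60 CPM at 6 h (314 UMIs) and 3.87 CPM at 30 h (315 UMIs), below the 14.8, 11.5 and 14.4 CPM of empty droplets. aCap-like ECs held 17.1, 12.0 and 9.36 CPM and gCap-like ECs 1.24, 1.76 and 2.11 CPM. The 127 aCap-like control cells with 3 or more UMIs of the pericyte and smooth muscle list held 270 Ednra UMIs, 57.2% of all those in control ECs, at 188 CPM, while the 1083 aCap-like cells with none of that list held 19 UMIs, at 1.77 CPM. At 6 h and 30 h the same contrast was 180 against 0.302 CPM and 94.7 against 0.722 CPM. In cells outside the endothelial limit with pericyte or smooth muscle markers (39, 28 and 16 cells) Ednra stood at 667, 296 and 360 CPM, and in 41, 37 and 28 fibroblast-marked cells at 515, 513 and 280 CPM. The summed pericyte and smooth muscle list of aCap-like ECs was 222, 153 and 126 CPM, so it declined over the libraries together with Ednra. Without cells with RNA of other cell types the all-EC log2 ratios of -0.53 and -0.43 became 0.19 and 0.45. Without any cell holding a UMI of the pericyte and smooth muscle list they became -0.13 and 0.11, and classes from clusters with stricter names gave a mean log2 ratio of aCap-like against gCap-like ECs of -0.41 in place of 2.33; the last 2 alternatives were chosen after the data were seen.

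**Figure D4:**
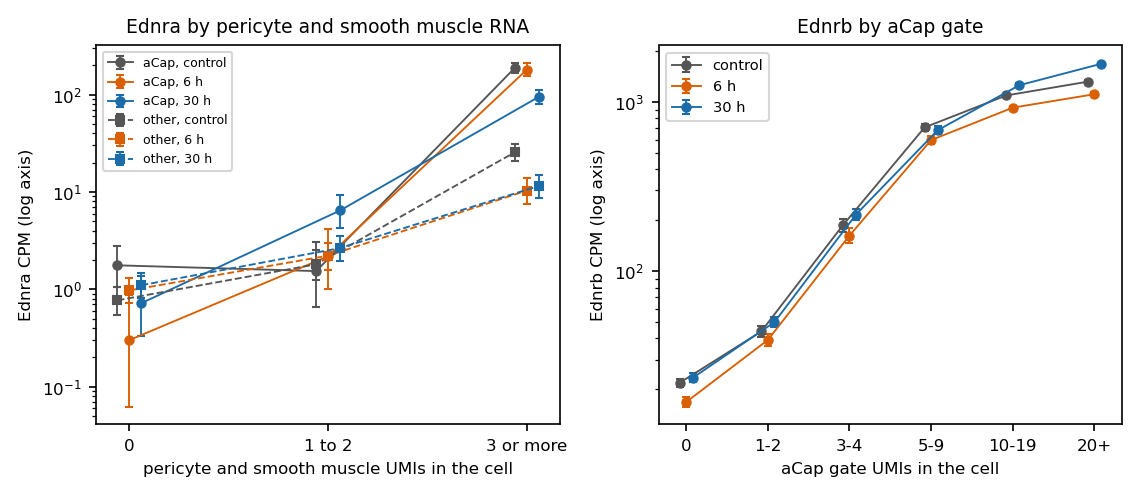
Left: Ednra CPM (log axis) of aCap-like and other ECs by the number of pericyte and smooth muscle UMIs in the cell; right: Ednrb CPM (log axis) by the number of aCap gate UMIs, with lines for the 3 libraries and 95% counting intervals. Ednra reached 188, 180 and 94.7 CPM in aCap-like cells with 3 or more pericyte and smooth muscle UMIs, whereas Ednrb increased over every step of the aCap gate.

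Ece1, the converting enzyme, was nearly level: 489, 472 and 461 CPM over all ECs, with log2 ratios of -0.05 and -0.08. Outside the LEC class it was highest in vein-like (603, 608 and 592 CPM) and artery-like ECs (606, 557 and 617 CPM), which overlapped. Next came gCap-like (513, 496 and 470 CPM) and aCap-like ECs (338, 313 and 371 CPM). With classes from Leiden clusters artery-like ECs lay below gCap-like ones, with a mean log2 ratio of -0.16 in place of 0.27. The LEC class held 557 (457 to 671), 504 (421 to 599) and 479 CPM (385 to 589), above gCap-like ECs in each library, with intervals that held the gCap-like level. The capillary classes split in sign at 30 h, with a log2 ratio of 0.13 (0.08 to 0.18) in aCap-like and -0.13 (-0.15 to -0.10) in gCap-like ECs. Both values lie well within the range of all genes, whose percentiles 5 and 95 were -0.67 and 0.60 in aCap-like and -0.57 and 0.55 in gCap-like ECs. The median of all genes was -0.08 in aCap-like and -0.07 in gCap-like ECs. With median-of-ratios scaling the 30 h log2 ratio of Ece1 over all ECs was -0.01. Edn1 and Ece1 UMIs were found together in 19.9% of thinned control ECs, against 18.7% from the product of their shares.

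Adm, the adrenomedullin ligand, was scarce in blood vascular ECs and moved in opposite directions at the 2 times. Over all ECs it stood at 2.99 CPM (272 UMIs), 4.26 CPM (372 UMIs) and 1.19 CPM (97 UMIs), with log2 ratios of 0.51 (0.28 to 0.74) at 6 h and -1.33 (-1.68 to -0.99) at 30 h. In gCap-like ECs the counts were 117, 248 and 39 UMIs and the log2 ratios 1.00 (0.68 to 1.33) and -1.36 (-1.92 to -0.83). In aCap-like ECs there were 59, 52 and 21 UMIs with ratios of 0.03 (-0.54 to 0.59) and -1.55 (-2.34 to -0.81). Empty droplets held only 8, 5 and 8 Adm UMIs, or 9.12, 7.2 and 3.03 CPM, with an interval above that of ECs in the control and overlapping ones at 6 h and 30 h. With 10% of each sum taken as free RNA and subtracted, the all-EC log2 ratios were 0.77 at 6 h and -1.23 at 30 h. The part of free RNA within classes was not tested. The LEC class held Adm at 147 (98.3 to 211), 74.2 (44.7 to 116) and 5.32 CPM (0.135 to 29.7), from 29, 19 and 1 UMIs. In these 29, 32 and 25 cells the summed epithelial list stood at 7721, 144 and 138 CPM, the immune list at 1123, 109 and 261 CPM and the platelet list at 951, 1519 and 3817 CPM, and their part in the Adm values was not tested. The 71, 51 and 55 cells with at least 10 LEC gate UMIs had 85.6 (64.0 to 112), 70.7 (47.7 to 101) and 46.0 CPM (29.7 to 67.8) from 52, 30 and 25 UMIs. Those cells held 19.1%, 8.06% and 25.8% of all Adm UMIs; without cells at 3 or more LEC gate UMIs, an alternative chosen after the data were seen, the all-EC log2 ratios were 0.65 and -1.45. The summed level of 13 hypoxia-responsive genes in gCap-like ECs was 582, 882 and 673 CPM (Vegfa 246, 453 and 321 CPM). Within 3 levels of the hypoxia list the Adm log2 ratio of gCap-like ECs ran from 0.37 to 1.52 at 6 h, where the lowest level's interval (-0.42 to 1.14) held 0, and from -1.50 to -1.10 at 30 h. Within 3 immediate early levels the 6 h ratio was -0.36 (-1.37 to 0.60) at the low, 0.42 (-0.20 to 1.04) at the middle and 1.36 (0.90 to 1.85) at the high level, so the first of these changed sign and both of the lower intervals held 0. At 30 h it ran from -2.11 to -0.47, where the interval of the high level (-1.36 to 0.35) held 0. The part of either list in the Adm values was not tested.

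Calcrl and Ramp2, the adrenomedullin receptor and its main partner in ECs, were found in nearly every EC. After thinning, 95.9%, 94.5% and 94.1% of ECs held UMIs of both, against 14.3% and 28.6% with Calcrl and with Ramp2 in the 14 control immune cells and 12.5% with each in the 40 immune cells at 6 h. Calcrl stood at 4467, 3925 and 4039 CPM over all ECs (log2 ratios -0.19 and -0.15), highest in artery-like ECs (6214, 5368 and 5029 CPM). With classes from Leiden clusters Calcrl in artery-like against gCap-like ECs had a mean log2 ratio of -0.11 in place of 0.30. With median-of-ratios scaling its 30 h ratio over all ECs was -0.07. At 30 h its direction differed between the capillary classes: gCap-like ECs went from 5008 to 4267 CPM, a log2 ratio of -0.23 (-0.24 to -0.22), and aCap-like ECs from 3232 to 3890 CPM, a ratio of 0.27 (0.25 to 0.28). Ramp2 was 3648 CPM in the control, 3639 CPM at 6 h and 2798 CPM at 30 h, so that it was level at 6 h, with a log2 ratio whose interval (-0.01 to 0.00) held 0, and lower at 30 h, with a ratio of -0.38 (-0.39 to -0.37). The 30 h difference was -0.50 in gCap-like, -0.53 in vein-like, -0.29 in artery-like and -0.05 in aCap-like ECs. Ramp2 in empty droplets moved alike, from 4346 to 2778 CPM, a log2 ratio of -0.65 (-0.70 to -0.59); with 10% of each sum taken as free RNA and subtracted, the all-EC value was -0.35.

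Ramp3, the other accessory protein, had its highest level per UMI in vein-like ECs. It was lower in both melanoma libraries than in the PBS control over all ECs and in gCap-like and aCap-like ones. gCap-like ECs held most of its UMIs in each library. Vein-like ECs held 69.7, 66.5 and 63.4 CPM, gCap-like ECs 37.7, 23.9 and 29.2 CPM, aCap-like ECs 16.3, 12.4 and 12.0 CPM, and artery-like ECs 4.80, 7.23 and 5.21 CPM from 7, 10 and 14 UMIs. The vein-like level lay 1.85, 2.78 and 2.17 times above that of gCap-like ECs. Over all ECs Ramp3 stood at 36.5, 24.7 and 27.4 CPM with log2 ratios of -0.57 (-0.65 to -0.49) and -0.42 (-0.49 to -0.34), and the vein-like share of ECs was 9.69%, 6.48% and 8.08%. In gCap-like ECs the ratios were -0.66 (-0.75 to -0.56) and -0.37, in aCap-like ECs -0.39 (-0.67 to -0.12) and -0.45 (-0.71 to -0.18), and in vein-like ECs -0.07 (-0.24 to 0.10) and -0.14 (-0.30 to 0.03), the last pair with intervals that held 0. Empty droplets held Ramp3 at 37.6, 20.2 and 25.8 CPM, from 33, 14 and 68 UMIs, close to its all-EC level. With 10% of each sum taken as free RNA and subtracted, the all-EC log2 ratios were -0.53 at 6 h and -0.40 at 30 h. The part of free RNA within classes was not tested.

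Ace, the angiotensin-converting enzyme, changed little and was highest in arteries. It stood at 970, 867 and 1031 CPM over all ECs, with log2 ratios of -0.16 (-0.18 to -0.15) and 0.09 (0.07 to 0.10). Artery-like ECs held 1364, 1363 and 1686 CPM, gCap-like ECs 1038, 917 and 1087 CPM, aCap-like ECs 914, 815 and 1029 CPM and vein-like ECs 758, 624 and 634 CPM. Within each library gCap-like ECs lay above aCap-like ones, though their ranges over the libraries overlapped. Artery-like ECs lay above and vein-like ECs below both. At 30 h Ace was higher than in the control in artery-like ECs, with a log2 ratio of 0.31 (0.23 to 0.38), and lower in vein-like ECs, with -0.26 (-0.31 to -0.21).

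**Figure D5:**
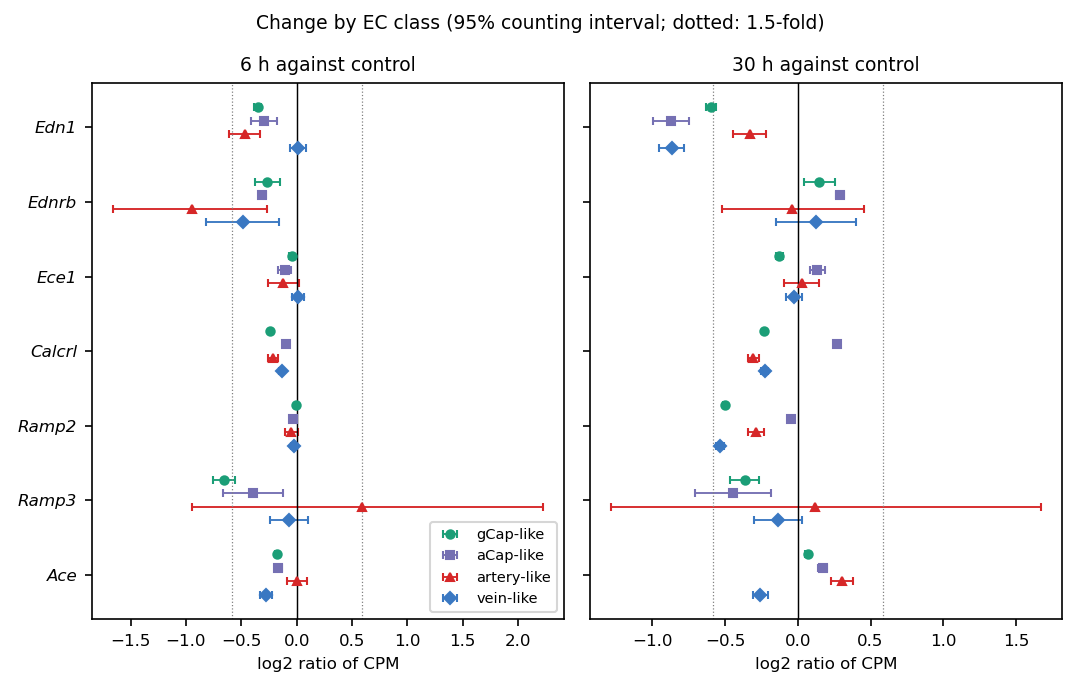
Log2 ratio of CPM at 6 h (left) and 30 h (right) against control for 7 of the genes in the 4 gated EC classes, with 95% counting intervals and dotted lines at 1.5-fold; Ednra and Adm, whose mean over the 3 libraries was below 5 CPM, are left out. At 30 h Edn1 lies below 0 in all 4 classes, Calcrl and Ece1 differ in sign between gCap-like and aCap-like ECs, and Ramp2 in aCap-like ECs lies near 0.

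Counts of members past 1.5-fold were 0 to 2 in each comparison of times, too few to set apart from the share of all genes. Of the 7 whose all-EC mean reached 5 CPM (not Ednra or Adm), 0 were past 1.5-fold at 6 h against control, where 2.94% of 10175 genes were, and 1 (Edn1) at 30 h, where 8.63% were. Between 6 h and 30 h it was 1 (Ednrb), beside 9.3% of genes. Within gCap-like ECs 1 of 7 was past it at 6 h (Ramp3, 3.54% of genes) and 1 of 7 at 30 h (Edn1, 9.04%). In aCap-like ECs it was 0 of 8 at 6 h (2.58%) and 2 of 8 at 30 h (Edn1 and Ednra, 12.6%). In vein-like ECs it was 0 of 7 at 6 h (4.96%) and 1 of 7 at 30 h (Edn1, 10.1%), and in the few artery-like cells 1 of 7 at 6 h (Ednrb, from 57 and 28 UMIs; 15.4% of genes) and 0 of 7 at 30 h (21.4%). Against gCap-like ECs and in the same direction in each library, 4 of 8 were past 1.5-fold in aCap-like ECs (Edn1 and Ramp3 lower, Ednra and Ednrb higher), where 14.7% of genes were. Ednra passed the filter there only through its aCap-like level, so its place in the count was fixed by the filter, and with stricter cluster names its ratio was -0.41. In artery-like ECs it was 2 of 7 (Edn1 higher, Ramp3 lower; 5.5% of genes) and in vein-like ECs 1 of 7 (Ramp3 higher; 6.27%).

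Cells with UMIs of Pim3, Bcl3 and Tmem252, genes of a reactive capillary state that the study defined on cells including these, numbered 248, 846 and 242 gCap-like ECs. At 6 h Calcrl was 3335 CPM in them and 4382 CPM in the other gCap-like ECs, a log2 ratio of -0.39 (-0.41 to -0.38), against -0.13 in the control and -0.12 at 30 h. Edn1 was 254 against 297 CPM at 6 h and 207 against 248 CPM at 30 h, with a control ratio of -0.09 (-0.19 to 0.01). Ramp2 was lower in them in each library, with log2 ratios of -0.17, -0.19 and -0.23, and Ednrb in the control (-0.70) and at 6 h (-0.36). Adm was higher in them at 30 h, at 2.44 against 0.699 CPM, a log2 ratio of 1.80 (0.26 to 3.08). All gCap-like ECs at 30 h held only 39 Adm UMIs, so this ratio rests on few counts. The Adm ratio was -0.75 (-3.05 to 0.84) in the control and 0.48 (-0.02 to 0.95) at 6 h. The other members had smaller ratios or intervals that held 0. The median depth at 6 h was 9409.5 UMIs in these cells and 7474 in the others, and its part in the ratios was not tested.

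Other genes of these pathways were examined from listed sets. The sets were chosen with earlier results of these data known, so a count above the share of all genes is not evidence about a set. Of 14 endothelin pathway genes, which include the G proteins and phospholipases that carry the receptor signal, 7 passed the filter and 0 were past 1.5-fold in either direction at 6 h or 30 h against control, while Plcb1 (467, 427 and 659 CPM) was past it between 6 h and 30 h, as were 9.3% of all genes. Of the 11 adrenomedullin and calcitonin pathway genes, 5 passed and 0 were past it in any of the 3 comparisons. Of 19 renin-angiotensin and kinin genes, 5 passed; Bdkrb2, the constitutive bradykinin receptor, was higher at 6 h, as were 1.8% of all genes, at 8.45, 15.7 and 10.8 CPM, and 0 were past it at 30 h. Of 15 other vasoactive genes that passed, 1 was higher and 1 lower at 6 h, where 1.8% of all genes were higher and 1.14% lower, and 5 were higher and 2 lower at 30 h, where 4.24% and 4.39% were. Higher at 30 h were Apln (26.8, 33.0 and 76.5 CPM), the apelin ligand; its receptor Aplnr (38.4, 38.7 and 77.4 CPM), which is also a gCap gate gene; Kdr (450, 461 and 724 CPM), the main VEGF receptor; the natriuretic peptide clearance receptor Npr3 (164, 215 and 283 CPM); and Ddah1 (93.9, 143 and 168 CPM), which degrades an inhibitor of nitric oxide synthase and was also past 1.5-fold at 6 h. Lower were the prostaglandin synthases Ptgs1 (163, 102 and 46.4 CPM, also at 6 h) and Ptgs2 (14.2, 14.6 and 6.84 CPM at 30 h). These values are over all ECs, and some of the genes differ widely between classes. Mean levels were 185 CPM in aCap-like and 9.31 CPM in gCap-like ECs for Apln, and 1501 and 300 CPM for Kdr. For Ptgs2 they were 110 CPM in vein-like and 0.807 CPM in gCap-like ECs. The part of the class shares in these values was not tested. Edn2, Adm2 and Uts2r had no UMI in any library, and Calca, Calcb, Calcr, Agt, Ren1, Agtr1b, Agtr2, Mas1, Bdkrb1, Kng1 and Nppc lay under 1 CPM in each. Edn3, the third endothelin, stood at 1.13, 0.859 and 1.71 CPM, and Agtr1a, the main angiotensin II receptor, at 3.19, 1.81 and 1.84 CPM.

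Genes with the most similar pattern were sought by Pearson correlation of log2(CPM + 1) over 15 sums (5 classes in 3 libraries, which share library and depth; the gated LEC sums held only 25 to 32 cells) among 9083 genes whose mean reached 10 CPM. For Edn1 they were Bnip2 (0.97), Zeb2 (0.95), Hnrnph2 (0.95), Mfhas1 (0.93) and Pik3ip1 (0.93). For Ednrb they were Ctsl (0.97), Clu (0.96), Itgb5 (0.96), Slc22a23 (0.96) and Kdr (0.95). For Ace they were Cxcr4 (0.97), Calcrl (0.96), Nisch (0.96), Cd38 (0.95) and Fmo1 (0.95). For Ramp3 the values were lower, with Rgs5 (0.90), Ogfrl1 (0.89), Ndufa8 (0.88) and Stn1 (0.86). For Adm, which rests on the LEC sums, they were Shld2, Shc1, Taf1a, Ift80 and Zfp53 (0.95 to 0.96).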

How the data were processed

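Per the file headers and the labels, the authors deposited unfiltered matrices of UMI counts (10x Genomics 3′ libraries, mm10, Cell Ranger 7.2.0, with Seurat 4.4.0 in the submitters' processing notes); whether intronic reads were counted is not given in the sources used here. The deposited counts are raw. Here ECs were barcodes with 1000 to 5000 genes, under 20% mitochondrial UMIs and Pecam1+Cdh5 of at least 2 UMIs (90853430, 87340328 and 81485079 UMIs in control, 6 h and 30 h). A class needed 3 UMIs of its gate (aCap, artery, vein or LEC), cells at 3 in more than 1 of these gates had no class, and gCap-like cells had 3 UMIs of the gCap gate and passed no other. Doublets were not removed except as an alternative. Empty droplets were barcodes of 10 to 100 UMIs. They numbered 15037, 11169 and 38238 in control, 6 h and 30 h, with 876994, 694224 and 2637032 UMIs. Where free RNA was subtracted, the same 10% was taken in every library, whatever its empty-droplet content. Sums have exact Poisson, ratios exact conditional binomial and shares exact Clopper-Pearson intervals (95%), which cover counting error only; PCR copies are removed by UMIs. With 1 library per group no test was made. Counts past 1.5-fold used log2(CPM + 1) and a mean of at least 5 CPM. Genes were named by rule: the 9, listed pathway genes past 1.5-fold or, for ligands and receptors, under 1 CPM, and the 5 most similar genes of 5 members; some genes that the rule names are not reported here. The members and lists were chosen with earlier results of these data known. Ratios were tested on simulated sums with Poisson error only, which lack the uneven spread among cells given above for Edn1. How well the intervals cover real cells was therefore not tested. Thinning was checked on control cells. Software was Python 3.11.15, scipy 1.17.1 and scanpy 1.11.5.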

Additional observations from a re-analysis of the deposited data

Results flagged for a closer look

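Results are given here where gCap-like and aCap-like ECs moved in opposite directions against control, each with a 95% counting interval that left out 0. The difference between the classes was not tested, since each class had 1 library per group. For Ednra the log2 ratio was 0.50 in gCap-like and -0.51 in aCap-like ECs at 6 h, and 0.77 and -0.87 at 30 h. With stricter cluster names the aCap-like values were 0.57 and 0.22, on the same side as gCap-like ECs. The gCap-like values rest on 72, 108 and 105 Ednra UMIs, and the aCap-like ones on cells with pericyte and smooth muscle UMIs, as described above. The summed list of gCap-like ECs was 63.0, 68.0 and 82.7 CPM in control, 6 h and 30 h, so it increased together with their Ednra. In ECs outside the aCap-like class, those with 3 or more UMIs of the list held Ednra at 25.6, 10.3 and 11.5 CPM. Those with none held it at 0.773, 0.976 and 1.10 CPM. The part of this RNA in the gCap-like values was not tested. For Ece1 at 30 h the log2 ratio was -0.13 in gCap-like and 0.13 in aCap-like ECs. For Calcrl at 30 h it was -0.23 in gCap-like and 0.27 in aCap-like ECs. The Ece1 and Calcrl values lie within percentiles 5 and 95 of all genes at 30 h, -0.57 and 0.55 in gCap-like and -0.67 and 0.60 in aCap-like ECs. The medians of all genes were -0.07 and -0.08 in these classes.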

How the results depend on the processing

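Edn1 at 30 h against control kept its direction under all alternatives (log2 ratio -0.64; -0.56 with median-of-ratios scaling, -0.59 with mitochondrial, ribosomal protein, haemoglobin and rRNA-like genes left out of the total). Ednrb at 30 h against 6 h was 0.93, and 0.88 from 300 genes up, 0.99 without cells with RNA of other cell types, 1.00 with median-of-ratios scaling, 0.97 with the reduced total, 0.86 thinned and 0.97 with free RNA subtracted. The number of members past 1.5-fold at 30 h against control went from 1 to 2 from 300 genes up (Ednra added), beside 8.76% of all genes. It was also 2 without the filter on low values (Adm added, 6.38% of all genes) and 0 with median-of-ratios scaling (8.51%). At 30 h against 6 h it was 2 without the filter, beside 6.99% of all genes. With a limit of 0.32 on the log2 scale the numbers were 2 at 6 h, 4 at 30 h and 3 between the times, beside 12.4%, 31.3% and 29.3% of all genes, and pathway genes went from 3, 7 and 6 to 9, 11 and 10. By class, gCap-like members past 1.5-fold at 30 h went from 1 to 0 with Leiden clusters under either naming; aCap-like ones at 6 h from 0 to 1 with a gate of 5 UMIs and with Leiden clusters, and at 30 h from 2 to 1 with a gate of 2 UMIs and with Leiden clusters under either naming; artery-like ones at 6 h from 1 to 0 (gate of 5) or 4 (Leiden) and at 30 h from 0 to 3 (Leiden); vein-like ones at 30 h from 1 to 2 (Leiden). Vein-like against gCap-like went from 1 to 2 (gate of 5) or 3 (Leiden, either naming). For these class alternatives the share of all genes past 1.5-fold was not computed, so the counts have no reference. With the main gates it was 15.4% at 6 h and 21.4% at 30 h in artery-like ECs. Several Leiden clusters named by the preset rule mixed classes, which is why the stricter naming was added after the data were seen. With it, Ednra reversed: 0.22 in aCap-like ECs at 30 h against control, -0.41 for aCap-like and 0.10 for artery-like against gCap-like ECs. The share of control aCap-like cells with an Ednrb UMI was 74.0% thinned and 89.4% not thinned. Of the log2 ratios over all ECs, 209 alternatives kept the sign and 13 did not, the latter for Ednra, Ramp2 at 6 h, and Ece1 and Calcrl between 6 h and 30 h. Of the log2 ratios within classes 323 kept the sign and 26 did not, with shifts of up to 2.55, and of classes against gCap-like ECs 125 kept it and 10 did not, with shifts of up to 2.73. No paired analysis was possible because each group had 1 library, and no library could be left out for the same reason; Adm and Ednra, with under 500 UMIs per library, are limited by depth.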
